A study of Mus musculus with 3 samples.

Results

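The genes described here are 10 regulators of mitosis, chosen by symbol from the 24401 loci of the deposited gene table. They are the enzyme and the activators of the anaphase-promoting complex (Ube2c, Cdc20 and Fzr1), the mitotic kinases (Plk1, Aurka and Aurkb), the mitotic cyclins (Ccna2, Ccnb1 and Ccnb2) and their kinase (Cdk1). Each symbol matched 1 locus, and all 10 had a mean of 1 FPKM or more over the libraries. FPKM scales fragments to transcript length and to the size of a library, so levels of different genes can be set side by side. How library size was measured here is not stated.

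RNA came from C2C12 cells, a mouse myoblast line that fuses into myotubes in culture. All cultures were first differentiated, in DMEM that held 2% horse serum plus insulin at 1 µg/ml, for 72 hours, and then received 1 of 3 media for 24 hours. The culture labelled conditioned media + resveratrol received 24-hour conditioned medium from S2-013, a pancreatic cancer line of human origin, together with the plant polyphenol resveratrol at 50 µM. The culture labelled conditioned media received such medium without resveratrol, and the control culture received DMEM. Fetal bovine serum at 10% is listed for all 3 cultures. No solvent for resveratrol is named, and a culture with resveratrol but without conditioned medium was not analysed here. Each group is 1 library of 1 cell line, so there is no spread between cultures, no SD and no test of the conditions. Depth is unknown, because FPKM carries no read count.

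A cell enters mitosis when CDK1, bound to cyclin A2 and then to the B cyclins, becomes active, helped by polo-like kinase 1 and the Aurora kinases. It leaves mitosis when the anaphase-promoting complex, a ubiquitin ligase, marks the cyclins and other proteins for destruction. CDC20 activates this ligase in mitosis, FZR1 takes over at mitotic exit and keeps it active in G1 and in cells that have left the cycle, and UBE2C is the enzyme that starts the ubiquitin chains. Myotubes have left the cell cycle, and C2C12 cultures also hold mononucleated cells that did not fuse.

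The promoters are shown first, as a description. Their part in the levels of the genes was not tested. In mammals, many genes of late G2 and mitosis carry a CHR element (TTTGAA or TTCGAA), the site of MuvB complexes, near CCAAT boxes, the site of NF-Y. RefSeq promoter windows (GRCm38.p6, from 250 bases before to 50 bases after the annotated start) were matched for 8 of the 10 genes. Aurkb and Ccna2 had no matched window. A CHR element on either strand was found in 6 of these 8 windows, against 19.2% of 32851 mouse promoter windows, and CCAAT on either strand in 8 of 8, against 37.4%. The windows of Fzr1 and Ccnb1 held CCAAT but no match to either CHR sequence. The 100 bases before the start are printed 5′ to 3′ on the gene's strand for 5 genes, as examples. Fzr1, Plk1 and Ccnb1 also hold CCAAT within these bases and are not printed. The CHR elements of Aurka and Ccnb2 lie outside the printed bases. Capitals mark CCAAT or its reverse complement ATTGG, and TTTGAA or its reverse complement TTCAAA.
Ube2c (chr2:164769829-164769928, forward strand): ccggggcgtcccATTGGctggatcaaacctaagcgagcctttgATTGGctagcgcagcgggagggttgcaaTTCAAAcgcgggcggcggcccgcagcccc
Cdc20 (chr4:118437344-118437443, reverse strand): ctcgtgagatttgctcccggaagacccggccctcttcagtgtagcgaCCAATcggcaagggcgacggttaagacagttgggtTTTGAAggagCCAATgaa
Aurka (chr2:172370571-172370670, reverse strand): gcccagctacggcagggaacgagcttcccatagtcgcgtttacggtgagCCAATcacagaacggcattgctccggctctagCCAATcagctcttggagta
Ccnb2 (chr9:70421555-70421654, reverse strand): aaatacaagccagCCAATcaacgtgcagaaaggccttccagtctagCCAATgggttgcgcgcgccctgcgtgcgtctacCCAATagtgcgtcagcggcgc
Cdk1 (chr10:69352913-69353012, reverse strand): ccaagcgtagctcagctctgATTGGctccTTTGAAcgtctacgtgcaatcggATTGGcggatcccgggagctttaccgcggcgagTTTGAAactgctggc

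In the Cdc20 window the CHR element lies at -18 to -13, counted from -1 at the base before the start, and CCAAT boxes begin at -53 and -8. In Cdk1 the elements begin at -71 and -15, with reversed CCAAT boxes at -80 and -48. Ube2c, Aurka, Ccnb1, Ccnb2 and Cdk1 each hold at least 1 pair of neighbouring CCAAT boxes on the same strand that begin 31 to 33 bases apart. Other neighbours on the same strand begin 42 and 95 bases apart in Ube2c, 45 in Cdc20 and 128 in Cdk1. That spacing was looked for after the sequences had been seen, and 0.794% of all windows hold such a pair. The Plk1 window has a single CCAAT at -14 and a CHR element at 31 after the start. Fzr1 has a single reversed CCAAT at -79. These are matches of letters and do not show that a factor binds.

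Adding resveratrol to conditioned media went with lower levels of all 10 genes. Their summed level was 63.7 FPKM in conditioned media + resveratrol and 296 FPKM in conditioned media. Differences are given as log2 ratios of FPKM + 1, which understate the change of low genes. A gene counted as lower or higher when this ratio was 1 or more in size (the size rule). By it, 9 of the 10 genes were lower and 0 were higher, against 4.97% of 11858 loci lower and 1.53% higher. The median log2 ratio of the 10 genes was -2.50, beside 0.025 over all loci. All 10 ratios were below 0, as were 47.4% of loci. Each of the 10 is called lower in the authors' deposited table, with a q-value of 0.000148, where 29.5% of tested loci are called lower. All 10 share the smallest p of the authors' Cuffdiff test, 5e-05, so their equal q-values do not rank them. The authors' call compares single libraries and has no replicate culture behind it. In RNA from a whole culture, fewer cells in mitosis and less RNA per cell cannot be told apart.

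**Figure D1:**
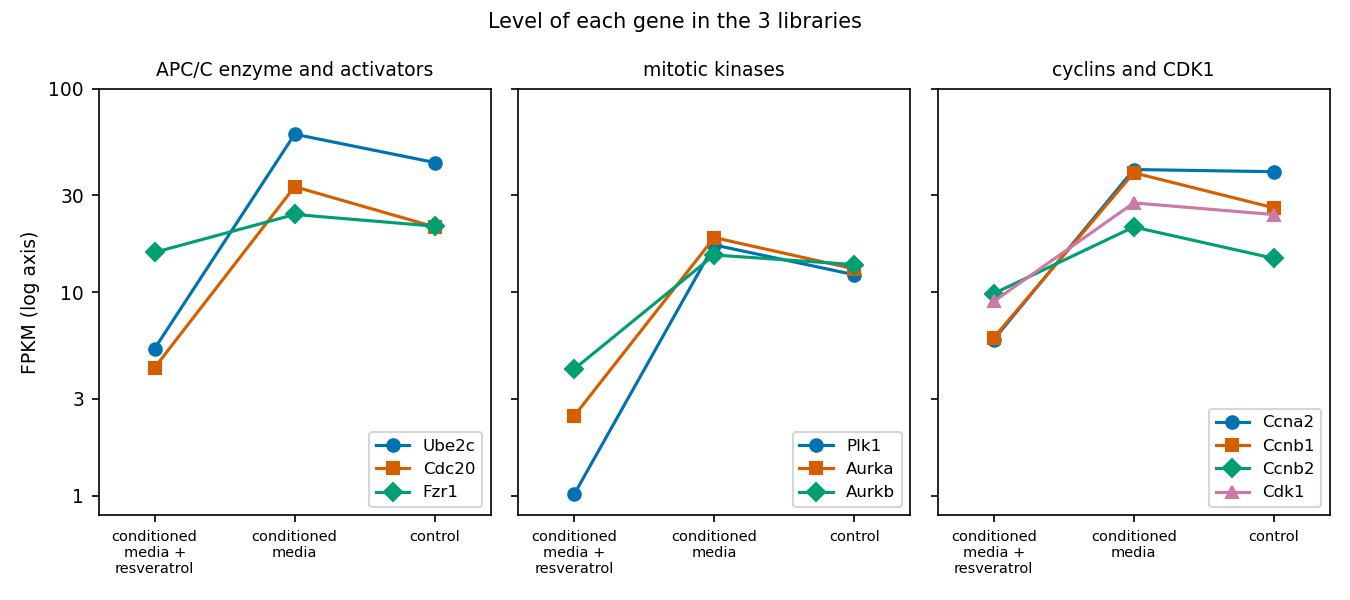
Level of each of the 10 genes in FPKM (log axis) in the libraries from conditioned media + resveratrol, conditioned media and control, 1 point per library, with lines joining the points of a gene. All genes are lowest in conditioned media + resveratrol, where Plk1 is at 1.02 FPKM and Fzr1 at 15.7 FPKM.

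Ube2c, the chain-starting enzyme, stood at 5.29 FPKM in conditioned media + resveratrol, 59.9 FPKM in conditioned media and 43.5 FPKM in control. It was the most abundant of the 10 genes in conditioned media and in control, and its level with resveratrol was 8.83% of that in conditioned media (log2 ratio -3.28). Only 10 of the 11858 loci had a lower ratio. Its locus lies on chromosome 2, positions 164769895 to 164772902 of mm10.

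The 2 activators of the ligase moved by different amounts. Cdc20, the activator of early mitosis, stood at 4.26 FPKM in conditioned media + resveratrol, 33.1 FPKM in conditioned media and 21.0 FPKM in control. Fzr1, the activator of mitotic exit and G1, stood at 15.7, 24.2 and 21.2 FPKM in the same libraries. With resveratrol Cdc20 was at 12.9% and Fzr1 at 65.1% of the conditioned media level, with log2 ratios of -2.69 and -0.59. Fzr1 was the single member that did not reach the size rule, and 1483 loci had a lower ratio than it. The ratio of Cdc20 to Fzr1 in FPKM was 0.271 in conditioned media + resveratrol, 1.37 in conditioned media and 0.992 in control, so the activators were about level in control and Fzr1 exceeded Cdc20 with resveratrol. The Cdc20 locus (chromosome 4, 118428093 to 118437343) shares its span with Elovl1 on the other strand, and whether reads were counted by strand is unknown. Elovl1, a fatty acid elongase gene, was at 31.8 FPKM in conditioned media + resveratrol, 37.9 FPKM in conditioned media and 43.5 FPKM in control, and its part in the Cdc20 value was not tested.

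Among the kinases, Plk1 had the largest relative difference of the 10 genes. Polo-like kinase 1, which acts at centrosomes, kinetochores and the midbody, stood at 1.02 FPKM in conditioned media + resveratrol, 17.1 FPKM in conditioned media and 12.2 FPKM in control. That is 5.94% of the conditioned media level, or 16.8-fold lower without the pseudocount (log2 ratio -3.17 with it). At about 1 FPKM this value depends most on the pseudocount, and its precision is unknown. The annotated gene Gm44985, 1016 bases long, overlaps Plk1 on the other strand, and its part in the Plk1 value was not tested.

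The Aurora kinases were not equally low. Aurka, the centrosome and spindle kinase, was at 2.47 FPKM in conditioned media + resveratrol, 18.6 FPKM in conditioned media and 13.0 FPKM in control (log2 ratio -2.50 with resveratrol over conditioned media). Aurkb, the kinase of the chromosomal passenger complex at centromeres, was at 4.20 FPKM in conditioned media + resveratrol, 15.3 FPKM in conditioned media and 13.7 FPKM in control (log2 ratio -1.65). Aurkb thus kept 27.5% of its conditioned media level and Aurka 13.3%. The ratio of Aurka to Aurkb was 0.588 in conditioned media + resveratrol, 1.22 in conditioned media and 0.952 in control.

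The cyclins divided in the same way. Ccna2, which pairs with CDK2 in S phase and with CDK1 in G2, stood at 5.85 FPKM in conditioned media + resveratrol, 40.2 FPKM in conditioned media and 39.2 FPKM in control. Ccnb1, the main cyclin of mitotic entry, stood at 5.98 FPKM in conditioned media + resveratrol, 38.7 FPKM in conditioned media and 26.1 FPKM in control. Ccnb2, the B cyclin found mainly at the Golgi, stood at 9.87 FPKM in conditioned media + resveratrol, 21.0 FPKM in conditioned media and 14.7 FPKM in control. Ccna2 and Ccnb1 kept 14.6% and 15.5% of their conditioned media levels, with log2 ratios of -2.59 and -2.51. Ccnb2 kept 47.1%, and its log2 ratio of -1.01 only just reached the size rule. With a pseudocount of 5, or after FPKM were rescaled to TPM over all loci, the Ccnb2 ratio was -0.80 or -0.90 and 8 of the 10 genes were past the rule. The pseudocount stayed at 1 after that rescaling, where it weighs more than it does in FPKM.

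Ccnb1 exceeded Ccnb2 in both other libraries and not with resveratrol, the ratio in FPKM being 0.607 in conditioned media + resveratrol, 1.85 in conditioned media and 1.77 in control. The Ccna2 locus (chromosome 3, 36552606 to 36571996) shares its span with Exosc9, an RNA exosome gene on the other strand. Exosc9 was at 23.2 FPKM in conditioned media + resveratrol, 22.9 FPKM in conditioned media and 23.4 FPKM in control. Whether reads of Exosc9 entered the Ccna2 value was not tested.

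Cdk1, the kinase that the cyclins activate, stood at 9.03 FPKM in conditioned media + resveratrol, 27.5 FPKM in conditioned media and 24.1 FPKM in control. It kept 32.8% of its conditioned media level (log2 ratio -1.51), more than Ccnb1 and less than Ccnb2. In conditioned media + resveratrol the order of levels was Fzr1, Ccnb2, Cdk1, Ccnb1, Ccna2, Ube2c, Cdc20, Aurkb, Aurka and Plk1. In conditioned media it was Ube2c, Ccna2, Ccnb1, Cdc20, Cdk1, Fzr1, Ccnb2, Aurka, Plk1 and Aurkb. Without replicate cultures it cannot be said which neighbours in these orders differ beyond their spread.

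**Figure D2:**
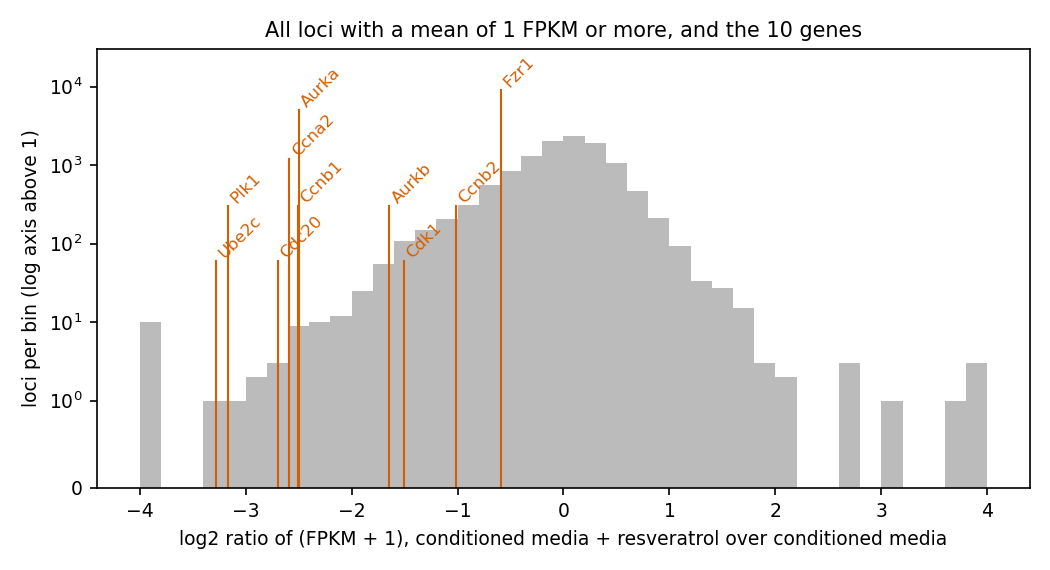
Number of loci (log axis above 1) per bin of the log2 ratio of FPKM + 1 for conditioned media + resveratrol over conditioned media, over 11858 loci, with values beyond -4 and 4 placed in the end bins. Vertical lines mark the 10 genes, from Ube2c at -3.28 to Fzr1 at -0.59, all left of 0.

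Conditioned media without resveratrol showed the opposite side, with small differences. All 10 genes had higher values in conditioned media than in control, 296 FPKM against 229 FPKM in sum, and 48.7% of all loci had ratios above 0. None of the 10 passed the size rule, which 1.98% of loci passed on the higher side, and the median log2 ratio was 0.45, beside -0.011 over all loci. The ratios ran from 0.035 for Ccna2 to 0.63 for Cdc20. Cdc20 was at 158% of its control level, Ccnb1 at 149%, Ccnb2 and Aurka at 143% each, Plk1 at 140% and Ube2c at 138%. Fzr1 and Cdk1 were at 114% of control, Aurkb at 112% and Ccna2 at 103%.

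The authors' deposited table calls 8 of the 10 higher in conditioned media than in control, where it calls 25.8% of tested loci higher. The exceptions are Aurkb, with a q-value of 0.143 in the authors' deposited table, and Ccna2, with 0.638. Ccna2 had a log2 ratio of 0.035, which was -0.053 when TPM over loci longer than 200 bases replaced FPKM. The 9 other genes stayed above 0 under each scaling tried.

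Set against control, the library from conditioned media + resveratrol again held less of each gene, 63.7 FPKM against 229 FPKM in sum. The 10 log2 ratios ran from -2.82 for Ube2c to -0.41 for Fzr1, with a median of -1.99 beside 0.00021 over all loci, and 49.9% of loci were below 0. By the size rule 8 genes were lower, against 5.25% of loci. The others were Fzr1, at 74.4% of control, and Ccnb2, at 67.1% (log2 ratio -0.53). Plk1 was at 8.33% of its control level, Ube2c at 12.2% and Ccna2 at 14.9%. Each of the 10 is also called lower than control in the authors' deposited table, as are 34.1% of tested loci. The 3 comparisons share libraries and are not independent of each other.

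**Figure D3:**
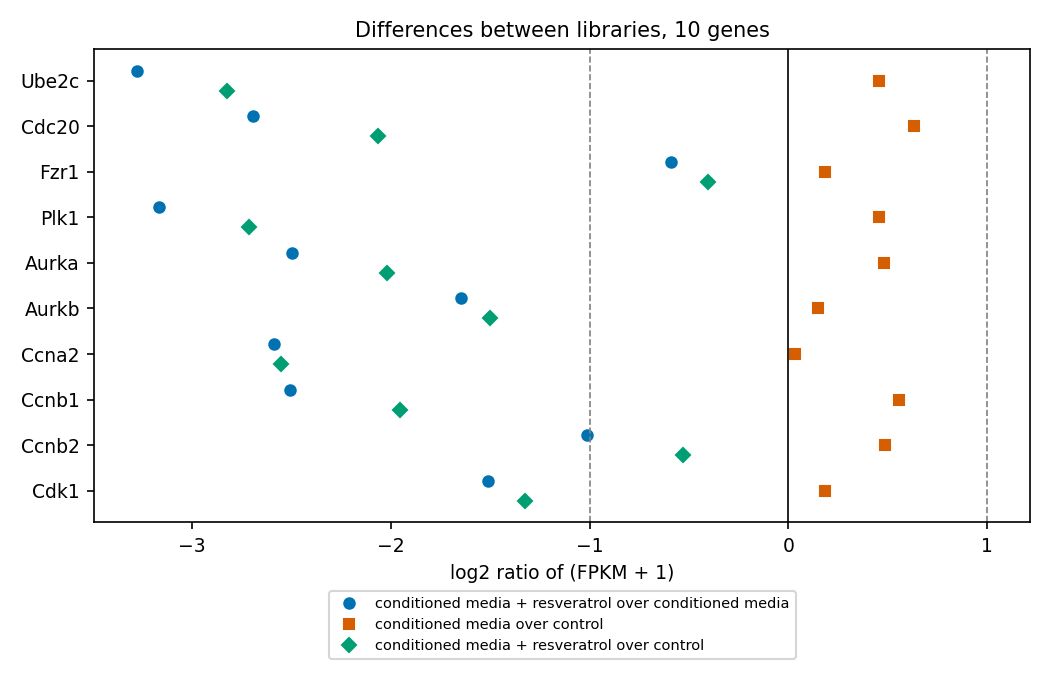
Log2 ratio of FPKM + 1 for each of the 10 genes in the 3 comparisons, with dashed lines at -1 and 1. Ratios of conditioned media over control lie between 0 and 0.63, and both comparisons with resveratrol lie left of 0, with Fzr1 and Ccnb2 nearest to it.

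The subunits of the anaphase-promoting complex itself had ratios closer to 0 than its activator Cdc20. Of 14 core subunits and the chain-extending enzyme Ube2s, 0 of 15 passed the size rule with resveratrol over conditioned media. The median log2 ratio was -0.14, with 11 of the 15 ratios below 0. Over all loci, 4.97% were lower by the rule, 1.53% were higher and 47.4% had ratios below 0. The authors' deposited table calls 9 of the 15 lower and 2 higher, beside 29.5% of tested loci called lower. Ube2s, at 66.7 FPKM in conditioned media + resveratrol, 98.0 FPKM in conditioned media and 87.3 FPKM in control, kept more of its level than its partner Ube2c. The subunit gene Anapc15 was at 6.21 FPKM in conditioned media + resveratrol, 9.84 FPKM in conditioned media and 11.9 FPKM in control (log2 ratio -0.59), and Anapc13 had a log2 ratio of 0.43.

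Genes whose products inhibit the complex were low with resveratrol in part. Of 4 such genes, 2 were lower by the size rule with resveratrol over conditioned media, beside 4.97% of all loci. Bub1b, a component of the mitotic checkpoint complex, stood at 4.11 FPKM in conditioned media + resveratrol, 14.7 FPKM in conditioned media and 10.6 FPKM in control. Fbxo5, which encodes the interphase inhibitor EMI1, stood at 3.90 FPKM in conditioned media + resveratrol, 9.03 FPKM in conditioned media and 10.6 FPKM in control. The checkpoint genes Mad2l1 and Bub3 had log2 ratios of -0.75 and -0.50.

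Most genes for other proteins that the complex marks for destruction were low as well. By the size rule 13 of 16 were lower with resveratrol over conditioned media and 0 were higher, with a median log2 ratio of -1.54. Over all loci, 4.97% were lower and 1.53% higher. Kif22, a chromosome-arm kinesin, stood at 1.32 FPKM in conditioned media + resveratrol, 11.1 FPKM in conditioned media and 9.07 FPKM in control. Top2a, the DNA topoisomerase of chromosome condensation, stood at 12.5 FPKM in conditioned media + resveratrol, 59.3 FPKM in conditioned media and 47.4 FPKM in control. Cdca3, a trigger of mitotic entry, and Anln, the cytokinesis scaffold anillin, had log2 ratios of -2.30 and -2.12. The 3 that did not pass, picked out after their values were seen, were the replication licensing inhibitor Gmnn (-0.67), the ribonucleotide reductase subunit Rrm2 (-0.35) and the ubiquitin ligase subunit Skp2 (-0.26). In conditioned media over control 13 of the 16 had ratios above 0, as did 48.7% of all loci. The 3 below 0 were Tk1, Rrm2 and Skp2.

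The regulators of CDK1 were mixed. Of 13, 2 were lower with resveratrol over conditioned media by the size rule and 1 was higher, with a median log2 ratio of -0.40. Over all loci, 4.97% were lower and 1.53% higher. The lower genes were the activating phosphatases Cdc25b, at 7.62 FPKM in conditioned media + resveratrol, 22.6 FPKM in conditioned media and 19.8 FPKM in control, and Cdc25c, at 2.43, 6.83 and 3.38 FPKM in the same libraries. The gene above the rule was Gadd45a, a stress-induced gene whose product can inhibit the CDK1 and cyclin B1 complex, at 309 FPKM in conditioned media + resveratrol, 132 FPKM in conditioned media and 115 FPKM in control. Ccnf, which encodes the ubiquitin ligase subunit cyclin F, had a log2 ratio of -0.97.

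Of the partners of the Aurora kinases and PLK1, 6 of 11 were lower with resveratrol over conditioned media by the size rule. None was higher, and the median log2 ratio was -1.22. Over all loci, 4.97% were lower and 1.53% higher. Tpx2 is counted both here and among the other substrates above. The passenger complex genes that work with Aurkb were close to it in size, Birc5 (survivin) at -1.92, Cdca8 (borealin) at -1.70 and Incenp at -1.56, beside -1.65 for Aurkb. Birc5 stood at 9.25 FPKM in conditioned media + resveratrol, 37.9 FPKM in conditioned media and 32.3 FPKM in control. Tpx2, the spindle activator of Aurora A, stood at 8.31 FPKM in conditioned media + resveratrol, 25.5 FPKM in conditioned media and 18.0 FPKM in control (log2 ratio -1.51), and so kept more of its level than Aurka did.

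For regulators that act through these promoter elements, 12 of 13 listed genes were analysed here. The exception is Foxm1, so the values below do not cover it. Of the 12, 0 passed the size rule with resveratrol over conditioned media, beside 4.97% of all loci lower and 1.53% higher. In the same comparison 6 ratios were above 0 and 6 below, and the median log2 ratio was -0.0036. Over all loci, 47.4% of ratios were below 0. The MuvB subunit Lin52 was at 9.89 FPKM in conditioned media + resveratrol, 4.91 FPKM in conditioned media and 6.64 FPKM in control. Rbl1, the pocket protein p107, was at 3.68 FPKM in conditioned media + resveratrol, 7.21 FPKM in conditioned media and 9.33 FPKM in control. The NF-Y subunits Nfya and Nfyb had log2 ratios of 0.76 and -0.67.

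Relatives of the 10 genes that work outside mitosis were mostly within the rule. Of 17 cyclins, kinases and ubiquitin-conjugating enzymes, 2 were lower with resveratrol over conditioned media, 1 was higher, and the median log2 ratio was -0.19. Over all loci, 4.97% were lower and 1.53% higher. The G1 cyclin Ccnd1 stood at 9.55 FPKM in conditioned media + resveratrol, 33.0 FPKM in conditioned media and 43.8 FPKM in control, and its kinase Cdk6 had a log2 ratio of -1.05. Plk3, a stress-responsive polo-like kinase, was on the other side of Plk1, at 11.6 FPKM in conditioned media + resveratrol, 4.37 FPKM in conditioned media and 5.11 FPKM in control. Plk4, the centriole duplication kinase, had a log2 ratio of -0.71.

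**Figure D4:**
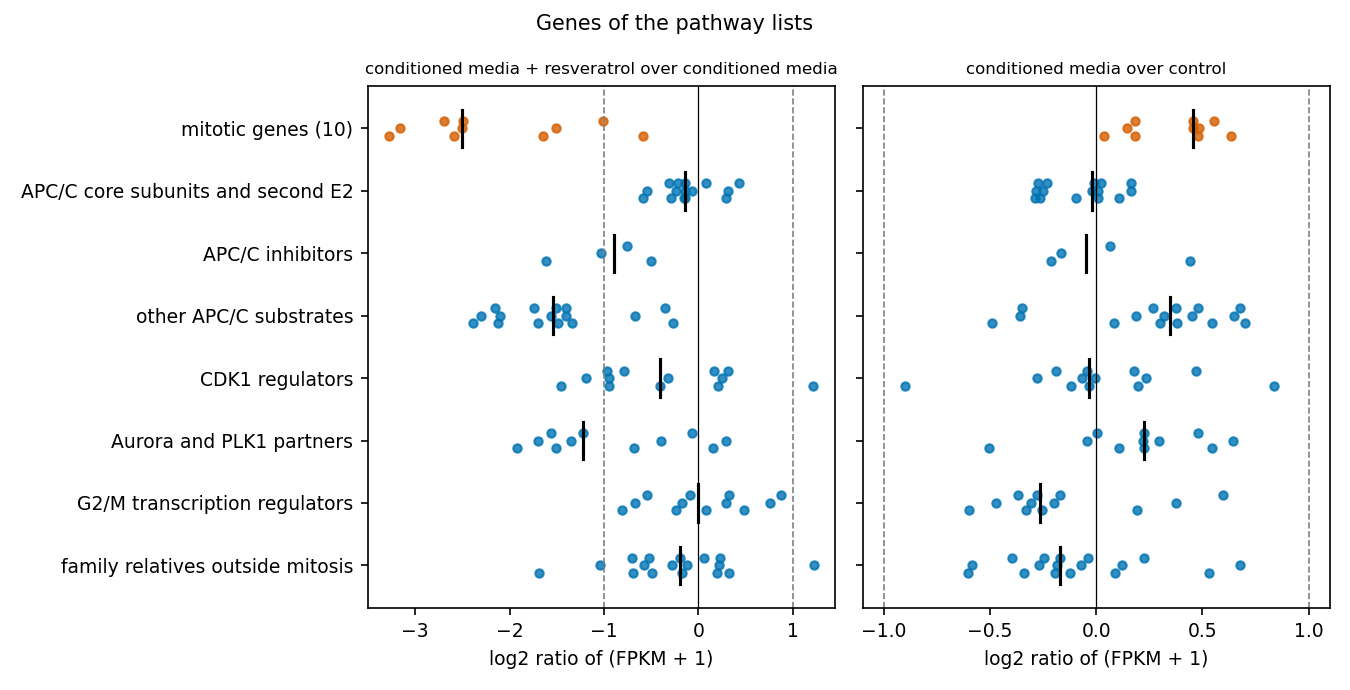
Log2 ratios of FPKM + 1 for the genes of each list, 1 point per gene with a black bar at the median, for conditioned media + resveratrol over conditioned media (left) and conditioned media over control (right), with dashed lines at -1 and 1. With resveratrol the 10 mitotic genes have a median of -2.50 and the subunits of the complex one of -0.14.

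Few of the listed cell type markers passed the size rule in the same comparison, and a list does not show that its cell type is in the culture. The labels give the cell type as myoblast and the protocol as differentiated, and all 10 myotube markers were present in each library. They summed to 6399 FPKM in conditioned media + resveratrol, 4421 FPKM in conditioned media and 5062 FPKM in control. With resveratrol over conditioned media, 1 of 10, the perinatal myosin gene Myh8, was higher by the size rule. Over all loci, 1.53% were higher and 4.97% lower. Of the 10 ratios, 9 were above 0, while 47.4% of all loci were below 0. Of 7 myoblast and reserve cell markers, which summed to 365 FPKM in conditioned media + resveratrol, 270 FPKM in conditioned media and 239 FPKM in control, 5 had a mean of 1 FPKM or more. Among these Myf5 was lower by the size rule, at 2.69 FPKM in conditioned media + resveratrol, 9.23 FPKM in conditioned media and 10.9 FPKM in control. Cd34 had a log2 ratio of -0.16, while Myod1, Vcam1 and Sdc4 had ratios above 0. Pax7 was at 0.271 FPKM in conditioned media + resveratrol, 0.699 FPKM in conditioned media and 1.04 FPKM in control. Pax3 was near the floor in each library, at 0 FPKM in conditioned media + resveratrol, 0.039 FPKM in conditioned media and 0.083 FPKM in control.

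The 6 fibroblast markers summed to 2343 FPKM in conditioned media + resveratrol, 3332 FPKM in conditioned media and 2415 FPKM in control. Of 4 with a mean of 1 FPKM or more, only Col1a1 was lower by the size rule with resveratrol, as were 4.97% of all loci. The 5 epithelial markers summed to 1.42 FPKM in conditioned media + resveratrol, 3.26 FPKM in conditioned media and 2.15 FPKM in control, with Krt18 listed at 0 in each library. The proliferation markers did not move alike. Mki67, the Ki-67 gene, stood at 10.3 FPKM in conditioned media + resveratrol, 18.6 FPKM in conditioned media and 15.8 FPKM in control, and the replication clamp gene Pcna at 110.0, 81.2 and 134 FPKM in the same libraries. The part of these cell markers in the levels of the 10 mitotic genes was not tested.

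The 5 genes whose pattern over the 3 libraries was closest to the median pattern of the 10 were found by Euclidean distance between log2(FPKM + 1) values, each gene centred on its own mean. They were Prc1, a spindle midzone protein gene (distance 0.134), Has2, a hyaluronan synthase gene (0.152), Kif22 (0.154), Cyp1b1, a cytochrome P450 gene (0.160), and Gpr35, a receptor gene (0.174). Prc1 stood at 4.50 FPKM in conditioned media + resveratrol, 29.8 FPKM in conditioned media and 23.2 FPKM in control, and Has2 at 7.35, 39.9 and 33.0 FPKM in the same libraries. Of the 10 genes, Aurka and Ccnb1 lay closest to their common pattern, at 0.073 and 0.088, and Ccnb2 and Fzr1 farthest, at 1.17 and 1.40. A pattern over 3 libraries has few degrees of freedom, and the likeness is a description.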

How the data were processed

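RNA sequencing of 3 libraries was used, 1 per group, grouped by their treatment labels. Per the submitters' processing notes the build was mm10, and the tools were Cuffdiff 2.2.1.3, Cufflinks 2.2.1.0, TopHat2 2.1.0, Trim Galore 0.4.3.1, FastQC 0.69 and Bowtie. How libraries were scaled, whether counting used strand, and which annotation served are not stated. The deposited FPKM values of 24401 loci were taken as they stand. The authors' log2 fold changes and Cuffdiff's test statistic, a score, stand in the deposited table and were not used beyond the direction of calls, and q-values and p-values (smallest p 5e-05) are the authors' deposited values.

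Log2 ratios of FPKM + 1 were computed in Python 3.11.15 with pandas 2.3.3 on all loci, and counts cover the 11858 loci whose mean reached 1 FPKM. The size rule was an absolute ratio of at least 1. Its computation was checked on simulated data, which gives no error rate for these cultures. The members and lists were chosen with earlier results of these data known. Lists share genes: Tpx2 is among the other substrates and the partners, and Top2a among the other substrates and the proliferation markers. Besides the 10 members, up to 4 genes per list were named by absolute ratio with resveratrol over conditioned media, and all genes of lists of 7 or fewer could be named. Locus positions count from 1. A comparison of protein motifs was planned and not run. Some list genes are not reported here.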

Additional observations from a re-analysis of the deposited data

How the results depend on the processing

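Counts of the 10 mitotic genes past the size rule stayed within 1.5 times of the reported 9, 0 and 8 under all alternatives tried, which were pseudocounts of 0.1 and 5, no filter or a mean of 5 FPKM, centring on the median of all loci, TPM over all loci or over loci longer than 200 bases, and summing loci of a symbol. The direction of the median ratio held under each of these that applies to it. For conditioned media + resveratrol over conditioned media the median was -2.72 and -1.77 at pseudocounts of 0.1 and 5, -2.53 when centred, and -2.11 and -2.66 with the TPM scalings. For conditioned media over control it was 0.47, 0.37, 0.47, 0.57 and 0.37 in the same order. For conditioned media + resveratrol over control it was -2.19 and -1.38 at these pseudocounts, and -1.46 and -2.22 with the TPM scalings.

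Over all loci, the count past the size rule for conditioned media + resveratrol over conditioned media was 771 as reported, 1183 and 243 at pseudocounts of 0.1 and 5, 493 at a mean of 5 FPKM and 373 with TPM over all loci. For conditioned media over control it was 324, and 599, 94, 188 and 176 in the same order. For conditioned media + resveratrol over control it was 1049, with 390 at a pseudocount of 5 and 573 with TPM. TPM over all loci took the median ratio of all loci over control to 0.137 from -0.011 for conditioned media. For conditioned media + resveratrol over control it took the median to 0.144 from 0.00021. The share of higher calls went to 83.0% from 72.5% for conditioned media and to 61.8% from 40.7% for conditioned media + resveratrol. Summed FPKM over all loci were 2.96e+06 in conditioned media + resveratrol, 2.95e+06 in conditioned media and 3.38e+06 in control. The pseudocount of 1 was kept after rescaling, where it weighs more than it does in FPKM. The parts of both in these moves were not tested. No paired analysis was possible because each group holds 1 library. Without replicates or read counts, the precision of a low value such as Plk1 with resveratrol is unknown.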
